A study of Arabidopsis thaliana with 6 samples.

Results

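The SQUAMOSA PROMOTER BINDING PROTEIN-LIKE (SPL) genes of Arabidopsis thaliana encode transcription factors that share the SBP DNA-binding domain. Most SPL messengers carry a target site for the microRNA miR156, which holds them low in young plants. The members described here were the 6 that are known to lie outside that control, namely SPL1 (AT2G47070), SPL7 (AT5G18830), SPL8 (AT1G02065), SPL12 (AT3G60030), SPL14 (AT1G20980) and SPL16 (AT1G76580). The 6 genes were proposed with results for these genes known, and their peaks were selected by the measured positions. The genes were examined as places where JAGGED (JAG), a zinc finger regulator of organ growth, may sit on the DNA of floral buds. Peaks were taken where the position of the maximum (the summit) lay inside a gene or at most 3000 bp from it. This gave 20 of the 6890 peaks in the 3 deposited lists, with 6 of 2620 in the list of replicate 1, 8 of 2143 in that of replicate 2 and 6 of 2127 in that of replicate 3.

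The study had 3 samples labelled JAG-GFP, from the jag-2 mutant carrying a genomic JAG fusion to green fluorescent protein (JAG:JAG-GFP), and 3 labelled wild type, from Landsberg erecta plants without the tag. Both came from inflorescence tips with only unopened buds, pooled by weight, and were precipitated with beads against the tag. Each peak carried a score set by the authors, whose scale, caller and control are not stated in what was used here. Scores are therefore also given as percentiles within their own list. Sequencing depth is unknown, so the precision of a score could be judged only from how far the 3 lists agreed. The tagged gene was checked first. JAG (AT1G68480) had the highest score of the lists of replicates 1 and 2, at 14.54 and 16.96. However, the fusion adds copies of this locus that the wild type lacks, and their part in the score was not tested. The list of replicate 3 ended on chromosome 1 at position 23827070, before both JAG and SPL16, so neither could be read in it. Peak lists hold no RNA levels, so the tissue label could not be checked against marker genes, and binding in fewer cells cannot be told apart from weaker binding in each cell.

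SPL proteins bind DNA through the SBP domain, a fold held together by zinc, and recognise a short core sequence. SPL1, SPL7, SPL12, SPL14 and SPL16 encode long proteins, with SPL1 close in sequence to SPL12 and SPL14 close to SPL16, whereas SPL8 is short. SPL1 and SPL12 are known for heat tolerance of inflorescences, SPL7 for the response to copper shortage, SPL8 for the formation of pollen sacs, and SPL14 for plant form and sensitivity to the fungal toxin fumonisin B1.

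Each of the 6 loci had a peak in at least 2 lists, and 4 of 6 (SPL1, SPL8, SPL14 and SPL16) had one in every list that covers the locus. Of 27444 nuclear protein-coding genes, 7.08% had a peak in every covering list, and 26% had a peak in any list. The share of genes with a peak in at least 2 lists is not given here, so nothing is read from that count. Split by coverage, 3 of the 5 members that all lists cover had a peak in all 3, where 6.73% of such genes did, and SPL16 had one in both lists that reach it, where 12.2% of genes past the end of list 3 did. By list the share of genes with a peak was 17.4% for replicate 1, 14.1% for replicate 2 and 14.6% for replicate 3, against 5 of 6, 5 of 6 and 5 of 5 members. The members were proposed with these peaks known, so the counts describe them and nothing is read from the difference. The stricter rule that a single merged region hold a summit of every covering list was met by 3 of 6 (SPL1, SPL8 and SPL16), and by 6.4% of all genes. Peaks were merged where they overlapped by at least 1 bp. With a window of 1000 bp only SPL8 had a peak in every covering list, and the share of all genes fell to 3.44%.

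**Figure D1:**
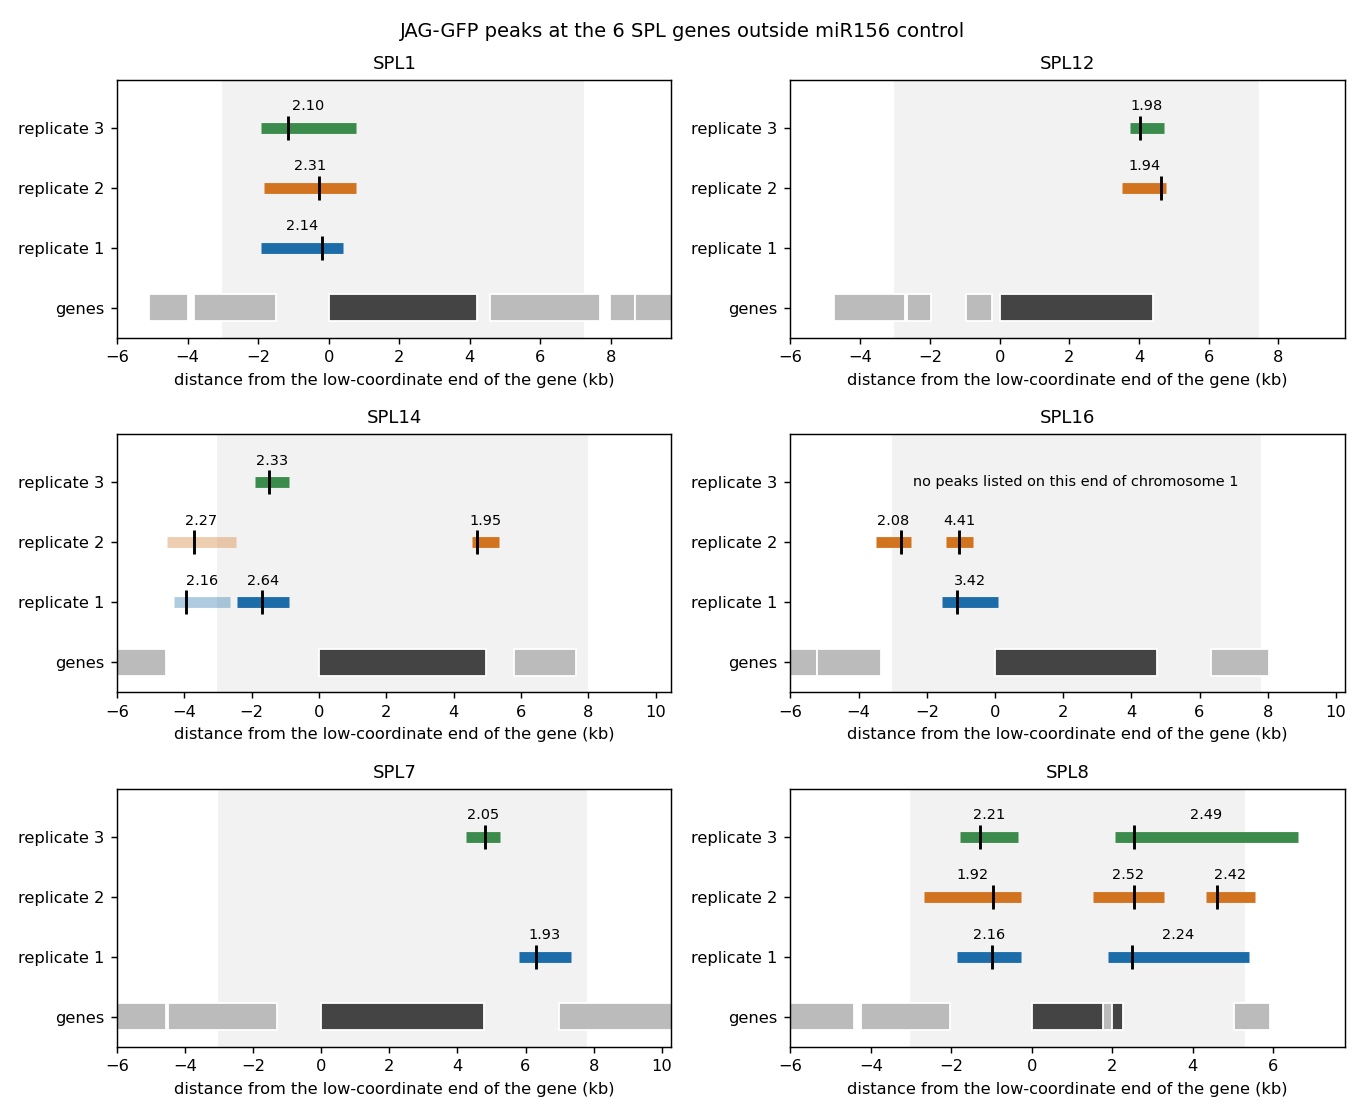
Peaks at the 6 loci, with distance from the low-coordinate end of each gene in kb on the horizontal axis and 1 row for each list. Coloured bars are peak intervals with the authors' score above them, black ticks are summits, pale bars are the nearest peaks with summits outside the window (those farther out are not drawn), the dark box is the SPL gene, light boxes are neighbouring protein-coding genes and the grey field is the window of 3000 bp; SPL1 and SPL8 have overlapping peaks in 3 lists, SPL14 has peaks at different places.

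SPL16 had the highest scores of the 6 loci. Its main region lay on chromosome 1 from 28732643 to 28734290 on TAIR10 and scored 3.42 in replicate 1 and 4.41 in replicate 2. These stood at ranks 47 and 21 of their lists, at percentiles 98.2 and 99.1. The summits, at 28733095 and 28733148, were 53 bp apart and lay 1112 and 1059 bp from the gene, with SPL16 as the nearest protein-coding gene in both. Among 114 regions found in lists 1 and 2 past the end of list 3, this one ranked 5th by mean score. Replicate 2 held another peak, at 28731460 with a score of 2.08, which was nearer to AT1G76570. The peak of replicate 2 was shorter than that of replicate 1, at 790 against 1648 bp, so the pair did not meet a reciprocal overlap of 50%.

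At SPL14, the relative of SPL16, the lists disagreed on the place. Replicate 1 had a peak with its summit at 7322765 on chromosome 1 and a score of 2.64 (percentile 90.7). Replicate 3 had one at 7322972 with a score of 2.33 (percentile 67.8). The 2 peaks overlapped, with summits 207 bp apart and 1706 and 1499 bp from the gene. Replicate 2 had no peak there. Its only summit in the window lay inside SPL14, at 7329167, with a score of 1.95 (percentile 27.9). A wider peak of replicate 2, from 7319954 to 7322003, ended 26 bp short of the peak of replicate 1 and 578 bp short of that of replicate 3. Its summit, at 7320753 with a score of 2.27, fell outside the window, as did a second peak of replicate 1 that it overlapped (summit 7320516, score 2.16). So SPL14 counts as present in all lists by the window, and in 2 lists for any 1 region.

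SPL1 had 1 region in all 3 lists, on chromosome 2 from 19334720 to 19337423. It scored 2.14, 2.31 and 2.10 in replicates 1, 2 and 3, at percentiles 62.7, 72.6 and 47.2. Its mean score ranked 639th of the 869 regions found in all lists. The peaks were wide, at 2336, 2614 and 2680 bp, at width percentiles 92.1, 96.8 and 96.7 of their lists. The summit of replicate 3 stood apart from the others. It lay at 19335505, against 19336454 and 19336365, which are 949 and 860 bp away. Over the 869 regions the median separation was 71 bp for replicates 1 and 3 and 52 bp for replicates 2 and 3, and 94.0% and 94.5% of regions had summits closer together than SPL1. The first pair of summits lay 199 and 288 bp from SPL1. That of replicate 3 was nearer to PTI1-4, the neighbouring gene, at 342 bp against 1148 bp from SPL1.

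SPL12, the relative of SPL1, had the lowest mean score of the 6 loci, although single peaks of SPL8 (1.92, replicate 2) and SPL7 (1.93, replicate 1) scored lower. No peak was listed in replicate 1, and replicates 2 and 3 scored 1.94 and 1.98, at percentiles 22.4 and 27.6. The lowest scores of these lists were 1.89 and 1.87. The peaks overlapped on chromosome 3 (22169099 to 22170369), but the summits were 598 bp apart, at 22170205 and 22169607, the first 221 bp outside the gene and the second inside it.

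SPL7, which encodes the factor that switches on copper uptake genes when copper is short, had a peak in replicates 1 and 3 and none in replicate 2. The peaks did not overlap. That of replicate 3 had its summit 31 bp from the gene (chromosome 5, 6280712) and scored 2.05, at percentile 40.2. That of replicate 1 lay farther out (6282193), scored 1.93 at percentile 25.1, and was nearer to AT5G18840. A gap of 545 bp separated them, so no region at SPL7 recurred in any other list.

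SPL8 had the most peaks, 7 of the 20, in 2 regions on either side of the gene. The region on the high-coordinate side (chromosome 1, 366684 to 371784) scored 2.24, 2.52 and 2.49 in replicates 1, 2 and 3, at percentiles 72.8, 82.4 and 75.2, and ranked 392nd of 869. Its best summits agreed closely, at 367664, 367711 and 367706. They lay 221, 268 and 263 bp from SPL8. Replicates 1 and 3 each had a single peak there, of 3497 and 4560 bp, among the widest of their lists (percentiles 98.9 and 99.8). Replicate 2 had 2 narrower peaks in the same span, the second with a score of 2.42 and its summit nearer to AT1G02070. A short gene, AT1G02067, overlaps SPL8 at this end.

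The region on the low-coordinate side of SPL8 (362486 to 364904) was weaker, with scores of 2.16, 1.92 and 2.21, and ranked 743rd. The summits of replicates 1 and 2 were 26 bp apart, and that of replicate 3 lay 285 and 311 bp from them. The first pair were nearest to SPL8, at 1002 and 976 bp, and the third was nearer to AT1G02060. The gene table has no strand, so the sides are given by coordinate and not as upstream or downstream.

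**Figure D2:**
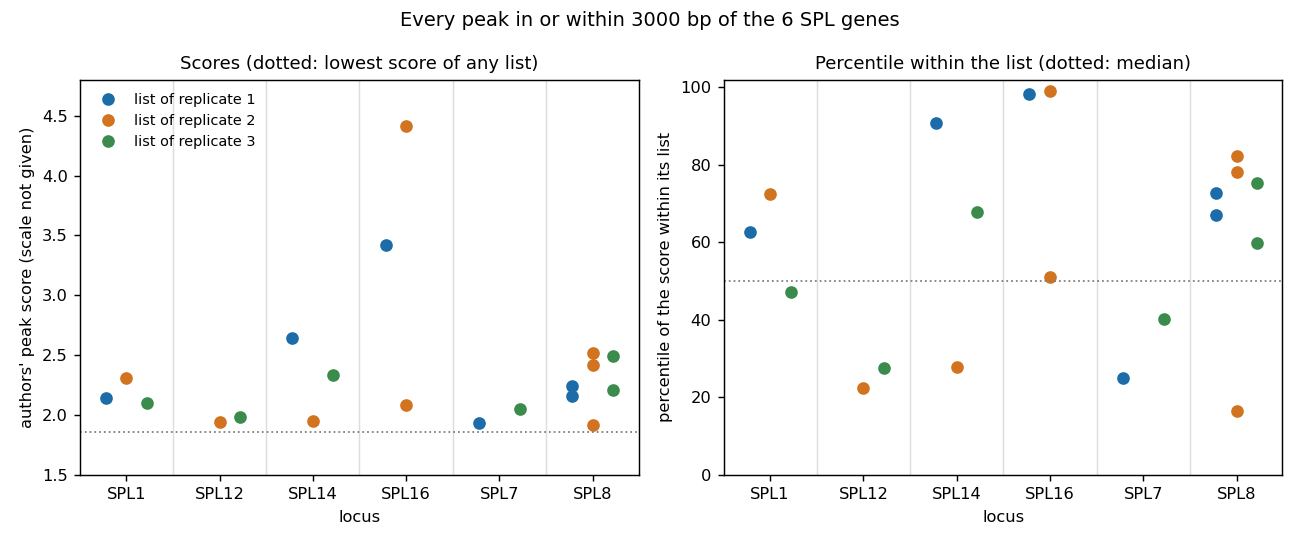
Every peak in the window by locus, as the authors' score on the left and as the percentile within its list on the right, with 1 point per peak coloured by list. SPL16 holds the highest points in replicates 1 and 2, at 3.42 and 4.41, and all points of SPL7 and SPL12 lie under the median of their list.

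By the mean score of the region found in most lists (for SPL7 a single list), the order was SPL16, SPL14, SPL8, SPL1, SPL7 and SPL12, at 3.92, 2.48, 2.42, 2.18, 2.05 and 1.96. SPL16 stood apart, with both values of its main region above every score at the other 5 loci. The values of SPL14 (2.64 and 2.33) and of SPL8 (2.24, 2.52 and 2.49) overlapped. By the mean of the best score in each list, wherever in the window it lay, SPL8 (2.42) came before SPL14 (2.31), because the 1.95 of SPL14 in replicate 2 then counts. Likewise the 2.05 of SPL7 lay near the 1.94 and 1.98 of SPL12. The order was the same by percentile. SPL14 and SPL8 changed places without replicate 1, SPL7 and SPL12 without replicate 3, and SPL8 and SPL1 with a reciprocal overlap of 50%. With that overlap the SPL8 region found in most lists was the weaker one, on the low-coordinate side, with a mean score of 2.10.

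Of the 20 peaks, 13 scored above the median of their list, 3 stood in the upper 10% and 18 were wider than the median. Only 2 summits lay inside a member gene, 8 lay outside within 1000 bp and 10 farther out. Over all peaks, placed by their nearest gene, 32.3 to 33.7% of summits lay inside a gene. The 2 figures are not counted alike, because the window reaches past neighbouring genes. The member was the nearest protein-coding gene for 15 of the 20. At the edge of the window, the outermost summits inside were at 2747 bp (SPL16, replicate 2, score 2.08) and 2331 bp (SPL8, replicate 2, 2.42), and the nearest outside were the 2 beside SPL14, at 3718 and 3955 bp. Space free of other genes differed among the loci. The larger flank measured 1489 bp at SPL1, 2199 bp at SPL7, 2751 bp at SPL8, 3355 bp at SPL16, 4549 bp at SPL14 and 5867 bp at SPL12, against a median of 2187 bp over all genes. Its part in the counts was not tested.

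Recurrence was more frequent among high scores than among low ones, so the members were set beside peaks of like score. Width was not matched, although 18 of the 20 member peaks were wider than the median of their list. In the score decile of replicate 1 that holds the SPL7 peak, 17.0% of peaks lay in a region of all 3 lists and 59.0% in that list alone. In the decile of the SPL7 peak of replicate 3 these shares were 28.5% and 30.4%. For the SPL12 peaks the shares in all lists were 24.9% in replicate 2 and 21.0% in replicate 3. The weaker SPL8 region recurred, with peaks of replicates 1, 2 and 3 in deciles where 42.1%, 17.5% and 35.2% did. Its replicate 2 peak was wide, at 2411 bp (width percentile 95.3). The SPL14 peak of replicate 1 was the opposite case. In its decile, the highest of that list, 94.4% of peaks lay in a region of all lists, and this one did not. Its score of 2.64 stood near the lower end of that decile (2.61 to 7.84), and in the decile below the share was 74.5%. For the overlapping SPL14 peak of replicate 3 the share was 47.6%.

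**Figure D3:**
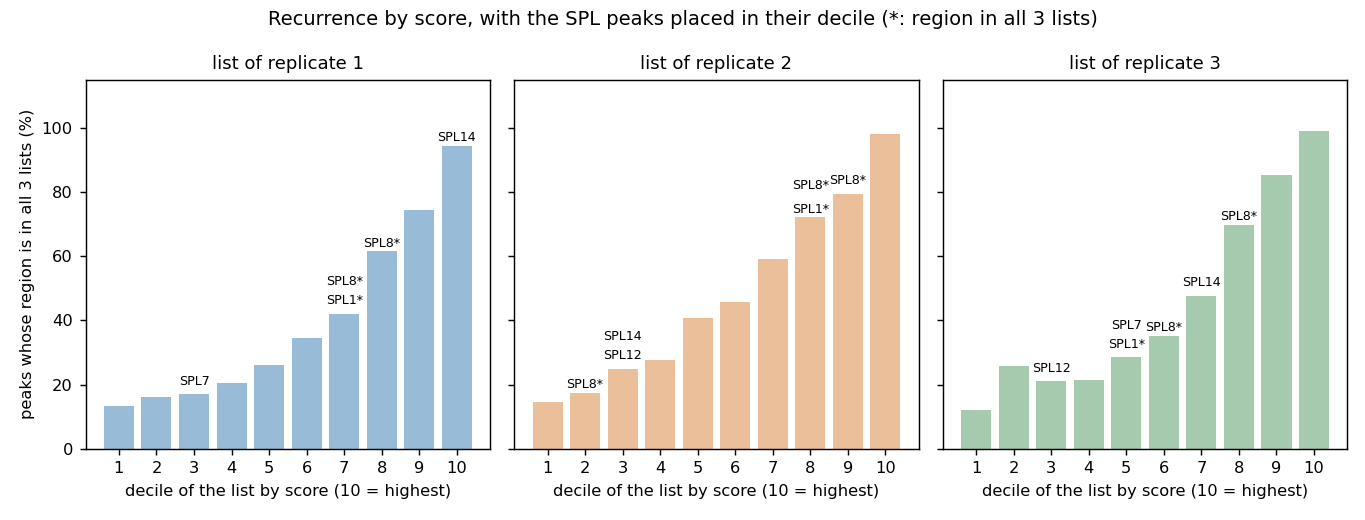
Percentage of peaks whose merged region is in all 3 lists (vertical axis) by decile of the score within each list (horizontal axis, 10 the highest), with bars for all peaks before the end of list 3. Names mark the decile of each SPL peak other than those of SPL16, with an asterisk where its region is in all 3 lists; SPL14 in replicate 1 sits on the bar at 94.4% without one.

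The miR156-targeted SPL genes were set beside them as the closest relatives. Of those 11, 6 had a peak in every covering list and 4 (SPL2, SPL6, SPL13A and SPL13B) in none. Together 10 of the 17 SPL genes did, against the same 7.08% of all genes. The 5 best by mean score were SPL11, SPL4, SPL10, SPL3 and SPL9. SPL11 scored 2.72, 3.15 and 2.94 in replicates 1, 2 and 3, with summits inside the gene. SPL4 scored 2.37, 2.53 and 3.15. Neither reached the 3.42 and 4.41 of SPL16. SPL10 and SPL11 are neighbours and share 1 region, whose summits were nearer to SPL11 in all lists. At SPL3 and SPL5 another gene was nearer to each summit. At SPL9, AT2G42190 was nearer to every summit on the low-coordinate side, among them the only summit of replicate 2. Median mean scores were 2.25 for the 6 genes and 2.30 for the 7 of the 11 with any peak, and the groups overlapped. No test of a difference between the groups was made.

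**Figure D4:**
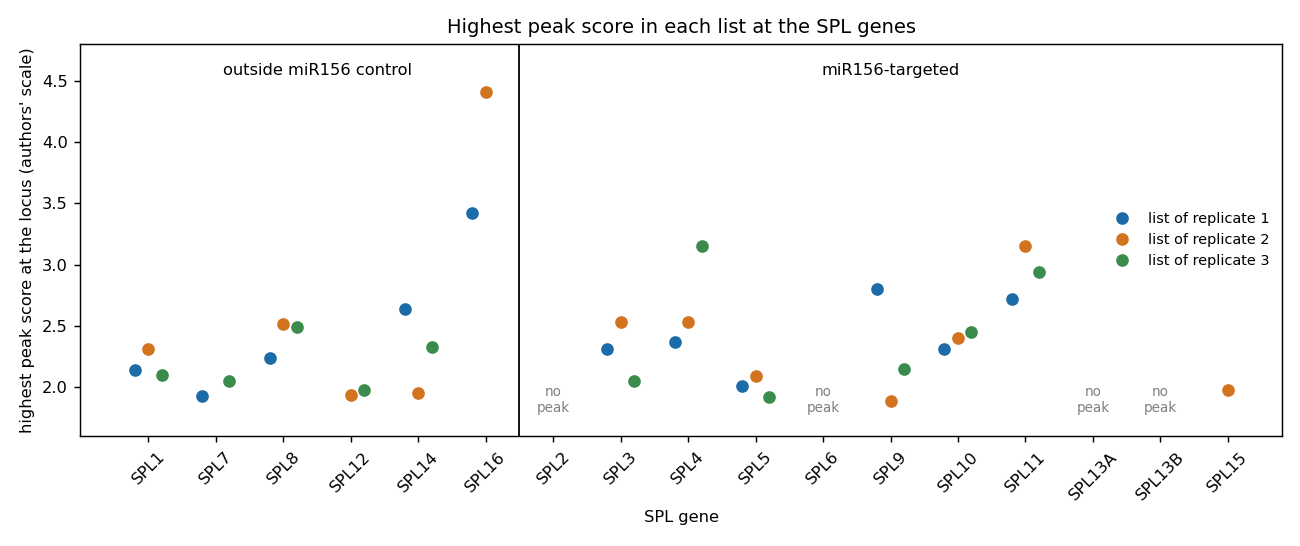
Highest peak score at each of the 17 SPL genes (vertical axis, the authors' scale), with 1 point per list and the 6 genes outside miR156 control on the left of the line. SPL16 has the highest points of the family, at 3.42 and 4.41, and 4 miR156-targeted genes have none.

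Other genes of the same pathways were counted from lists of known genes. Of 8 MIR156 genes, which encode the microRNA itself, none had a peak in every list, and MIR156D had one in replicates 1 and 2, at 1.88 and 1.94. Both summits were nearer to the protein-coding gene AT5G10946, at 118 and 126 bp against 996 and 1004 bp from MIR156D. Over all 326 microRNA genes the shares were 9.2% for every covering list and 24.2% for any list. Among copper genes known to act with SPL7, none of the 10 protein-coding ones had a peak in every list, against 6.73% of genes that all lists cover. Of these 10, 3 (CCS, YSL2 and COPT1) had one in any list, against 26% of all genes, so both counts are near the background. Each of these 3 had it in 2 lists, a count for which no share of all genes is given here. Of the 4 microRNA genes of the list, 3 had a peak in every list and MIR398A had one in replicate 1. No test of a difference between the gene types was made. MIR398B, whose product lowers copper-using superoxide dismutases, scored 3.37, 2.85 and 3.45 in replicates 1, 2 and 3, with summits 214, 214 and 238 bp away. MIR398C scored 2.31, 2.77 and 2.47. MIR408, whose targets include copper proteins, was weak, at 1.88, 2.07 and 2.06. A protein-coding gene was nearer to the summit at MIR398B (AT5G14550) and at MIR408 (AT2G47010).

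Anther genes, listed because SPL8 acts in the pollen sac, had a peak in every list in 5 of 13 cases, where 6.73% of genes that all lists cover did, and in no list in the other 8. The share of all genes with a peak in any list was 26%. BAM2, a receptor kinase of early anther cell fate, had a region on each side in all lists. The one on the low-coordinate side scored 3.03, 2.53 and 3.02 in replicates 1, 2 and 3 but was nearer to WDR5a, and the other scored 2.37, 3.17 and 3.15. TPD1, a secreted ligand that specifies the tapetum, had a summit inside the gene in all lists, with scores of 2.09, 2.82 and 3.25. EMS1, its receptor, scored 1.98, 2.48 and 2.25, but replicate 3 had its summit on the other side of the gene from replicates 1 and 2. The summits of replicates 2 and 3 were nearer to XBAT33 and ML4, respectively, than to EMS1. NZZ, also called SPOROCYTELESS and not a member of the SBP family, scored 2.21, 2.43 and 2.58 at 2414 to 2981 bp, with AT4G27340 nearer to each summit. At BAM1 the best scores were 2.14, 2.08 and 2.51, with that of replicate 1 on the other side of the gene from those of replicates 2 and 3. These summits of replicates 2 and 3 were nearer to AT5G65685, at 996 and 851 bp against 2534 and 2679 bp from BAM1. The 8 without a peak were DYT1, TDF1, AMS and MS1, regulators of the tapetum, the glutaredoxin genes ROXY1 and ROXY2, and the MYB genes MYB33 and MYB65. These lists were chosen with results for other genes of the series known, so the counts describe them.

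**Figure D5:**
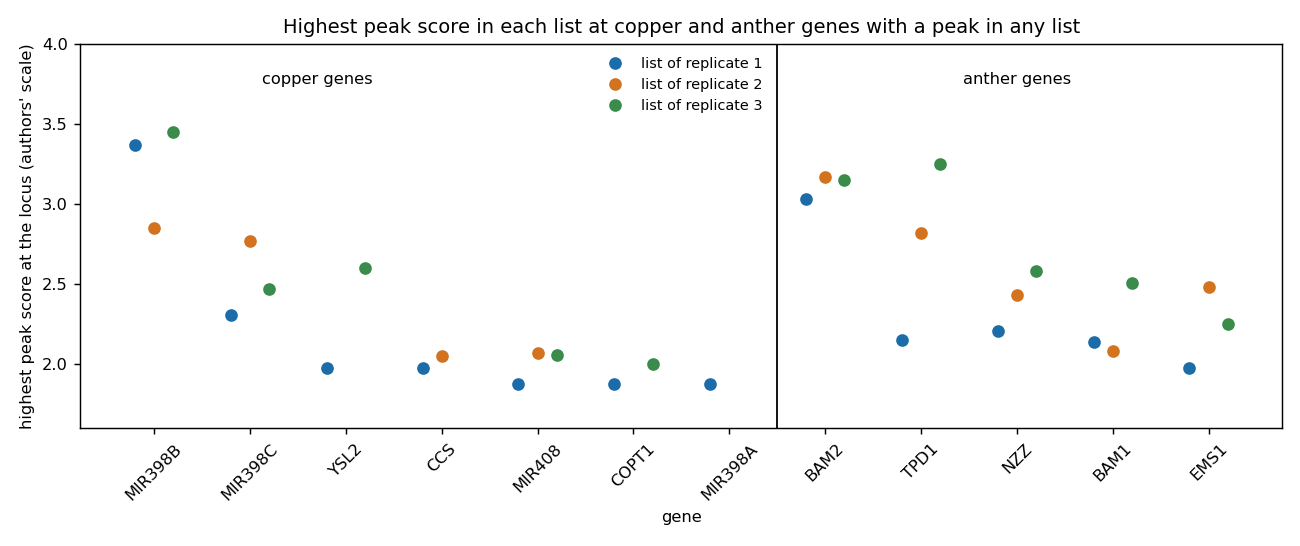
Highest peak score (vertical axis, the authors' scale) at the copper genes and anther genes with a peak in any list, with 1 point per list. MIR398B spans 2.85 to 3.45, BAM2 3.03 to 3.17 and TPD1 2.15 to 3.25.

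The genes whose best scores were most like those of SPL8, which had the highest mean best score of the members with a peak in 3 lists, were found by the distance between log2 scores over those lists among 1724 genes with a peak in each. AT5G14350 came first, with scores of 2.20, 2.48 and 2.45 and a distance of 0.04. AT1G14270 and PKS2 followed with the same scores, 2.25, 2.46 and 2.44, and a distance of 0.05. PKS2 (AT1G14280) has the next locus code after AT1G14270, so both may hold the same peaks, which was not checked.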

How the data were processed

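DNA precipitated with an antibody to green fluorescent protein was sequenced from 3 JAG-GFP samples and 3 wild-type samples, whose titles give the groups. The replicates are numbered, but nothing says whether they came from separate plants. The 3 peak lists were used as deposited. The score of each peak is the authors' own, per the file headers, and the scale, caller, threshold and control behind it are not stated in what was used here. The submitters' processing notes list CASAVA 1.8, without its role, and the build TAIR10. Depth and detection limits are unknown.

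Genes came from the RefSeq table of assembly TAIR10.1 (27444 nuclear protein-coding genes, 326 microRNA genes). Its gene models may differ from those of TAIR10, so distances carry that uncertainty. All 52 listed loci were found. A gene had a peak where a summit lay inside it or within 3000 bp. Peaks overlapping by 1 bp or more were merged. A gene was called covered by the list of replicate 3 if its window ended before that list's last chromosome 1 peak did. Placing and merging were tested on simulated data. Python 3.11.15 and pandas 2.3.3 were used.

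The members and lists were chosen with earlier results of these data known, so no test was run. All 6 members are named, and from other lists at most 5 genes with a peak in every covering list by mean score, plus genes singled out after their values were seen. Planned promoter motifs were not analysed, since no sequence was used here.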

Additional observations from a re-analysis of the deposited data

How the results depend on the processing

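The 6 loci had a peak in any list in 4 to 6 cases under every alternative tried. The count for every covering list, 4 of 6, stayed between 3 and 6 with a window of 5000 bp, by overlap of the peak interval, with the nearest gene only, with 1 merged region and with at least 2 lists, and ranged from 4 to 5 without 1 replicate in turn. It was 1 with windows of 1000 bp and 500 bp, 2 with the highest-scoring 50% of each list and 2 with a reciprocal overlap of 50%. For the miR156-targeted genes, 6 of 11, it was 3 and 1 with those windows, 3 with the highest-scoring 50% and 2 with the nearest gene only. The share of all genes, 7.08%, moved to 3.44%, 2.22% and 10.997% with windows of 1000, 500 and 5000 bp. It was 3.73% with the highest-scoring 50%, 3.22% with the nearest gene only and 8.23% by overlap of the peak interval. Without replicates 1, 2 and 3 in turn it was 9.26%, 10.1% and 8.69%. The shares for at least 2 lists and for a reciprocal overlap of 50% are not given here. The share with a peak in any list, 26%, was 15.9% and 12.4% with windows of 1000 and 500 bp, 12.9% with the highest-scoring 50% and 13.1% with the nearest gene only. Smaller windows and fewer peaks lower these by construction. No paired analysis was possible because each list is 1 value per replicate number and no comparison between groups of samples was tested. Precision is limited by having 1 list per replicate number and an unknown depth.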
